A study of Mus musculus with 8 samples.

Results

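The mitochondrial solute carriers of the Slc25 family were examined in gastrocnemius (GAS) muscle after prolonged MYTHO knockdown (MYTHO-KD). Members were taken by symbol, as every gene of the array table named Slc25a followed by a number. This gave 47 genes of 21980 symbol entries, each with 1 probe set, a group of short probes that measures 1 gene. The study asked what follows when MYTHO, a protein that takes part in autophagy, is depleted from skeletal muscle. Adult male C57/Bl6j mice received, at about 10 weeks of age, an adeno-associated virus (AAV) that expressed from a U6 promoter a short hairpin RNA against the Mytho transcript (AAV sh-RNA MYTHO, called MYTHO-KD here). The other leg received an AAV with a scramble hairpin under the same promoter (AAV sh-RNA scrmb, called scramble here), so that the control muscles also carried virus and hairpin. Muscles were taken at 22 weeks of age, 12 weeks after injection, and total RNA of 4 muscles per group was hybridized to Clariom S Mouse arrays. The knockdown is neither a gene deletion nor driven by a promoter restricted to muscle fibres, and the RNA is that of whole tissue. Each group is represented in the table by an average and a standard deviation (SD) on the log2 scale. Values of single muscles therefore cannot be shown, and no muscle could be set against its contralateral partner.

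Carriers of this family sit in the inner membrane of mitochondria, with a few exceptions in peroxisomes or the outer mitochondrial membrane. Each is built from repeated pairs of membrane-spanning helices and exchanges or co-transports small solutes, such as nucleotides, phosphate, carboxylates, amino acids, acylcarnitines or cofactors. In skeletal muscle the exchange of ADP for ATP and the uptake of phosphate feed ATP synthase, and the malate-aspartate shuttle brings reducing equivalents from glycolysis into the matrix.

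D230025D16Rik, the gene of MYTHO, fell from 10.02 in scramble to 7.71 in MYTHO-KD (authors' averages, log2 signal), which left 20.2% of the scramble signal (adjusted p = 0.0138, limma's moderated test). Without moderation of the variance its adjusted p was 0.173. All 9 muscle fibre markers were marked as expressed, with averages between 11.67 and 19.93. Averages of markers of other cells differed between the groups. Of 10 macrophage markers 10 had a higher average in MYTHO-KD, 6 of them with an unadjusted p under 0.05 (median log2 difference 0.695, summed signal 12.29 against 11.06 on the log2 scale), as had 7 of 7 fibroblast markers, 3 under that p (median 0.82, summed signal 17.04 against 16.66) and 5 of 5 endothelial markers, 2 under that p (median 0.53, summed signal 14.37 against 13.86). All 6 adipocyte markers had a lower average (median -0.51, summed signal 9.33 against 9.90), none with an unadjusted p under 0.05. Of all probe sets, 6.48% were higher and 5.52% lower at this p. Differences of the 9 slow and oxidative fibre markers ran from -1.03 to 0.93. The 2 under an unadjusted p of 0.05 were both higher, *Mb*, the oxygen store myoglobin, by 0.93 (SDs 0.34 in MYTHO-KD and 0.13 in scramble, adjusted p = 0.0754, limma) and the fast oxidative myosin *Myh2* by 0.41 (adjusted p = 0.315, limma). In MYTHO-KD *Myh2* averaged 19.91 with an SD of 0.01, close to 19.93, the highest average of any probe set. Both a difference and an SD can be compressed there. The paper reports the opposite direction for *Myh2* by RT-qPCR in another muscle, the tibialis anterior, and a smaller share of type IIA fibres. Why the directions differ was not tested. The slow fibre genes *Tnni1* and *Myh7* varied widely among the MYTHO-KD muscles, with SDs of 3.67 and 3.26 against 1.43 and 1.30 in scramble. The fast myosin *Myh1* was higher by 0.59 (adjusted p = 0.23, limma). None of the marker genes of these lists was marked as absent from both groups. The part of these markers in the values of the carriers was not tested, and in whole muscle RNA fewer cells of a type and less RNA per cell cannot be told apart.

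No carrier of the family passed the study's limits for a changed gene after 12 weeks of MYTHO-KD. Calls needed a 2-fold difference and an unadjusted p under 0.05, and limma's moderated test was fitted on all probe sets. None of the 47 members was called, where 1.12% of all 22206 probe sets were (0.86% higher and 0.257% lower). With the limit at 1.5-fold again no member was called, where 5.8% of all probe sets were (3.54% higher and 2.25% lower). None had an adjusted p under 0.05, where 0.275% of all probe sets did (0.18% higher and 0.0946% lower). At an unadjusted p under 0.05 alone, 3 members (6.38%) passed, against 12% of all probe sets. These were *Slc25a3* and *Slc25a13*, both higher in MYTHO-KD, and *Slc25a26*, which was lower. At this p, 6.48% of all probe sets were higher and 5.52% lower. Without moderation of the variance the count was 1 higher and 5 lower (12.8% of members, against 10.5% of all probe sets). Whether the share of members lay under or over that of all probe sets thus depended on the variance model. The lowest adjusted p of the family was 0.301.

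The differences of the family were centred on 0 and were close in size to those of all probe sets. In the group averages 23 members were higher in MYTHO-KD, 20 lower and 4 equal, with a median log2 difference of 0.00 against -0.01 for all probe sets. They ran from -0.50 to 0.50, and 14 members (29.8%) differed by 0.30 or more in either direction, as did 29.3% of all probe sets. The median size of the difference was 0.21, against 0.18 for all probe sets. For 44 of the 47 members the 95% interval of the difference lay wholly within a 2-fold change up or down. The interval lay within 1.5-fold for only 15 members. It reached 2-fold for *Slc25a15*, *Slc25a22* and *Slc25a25*. The 44 include *Slc25a4*, near the top of the scale, and all 8 members with a mean under the 30th percentile of all probe sets. A difference can be compressed at either end, so an interval close to 0 there does not show a lack of change.

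**Figure D1:**
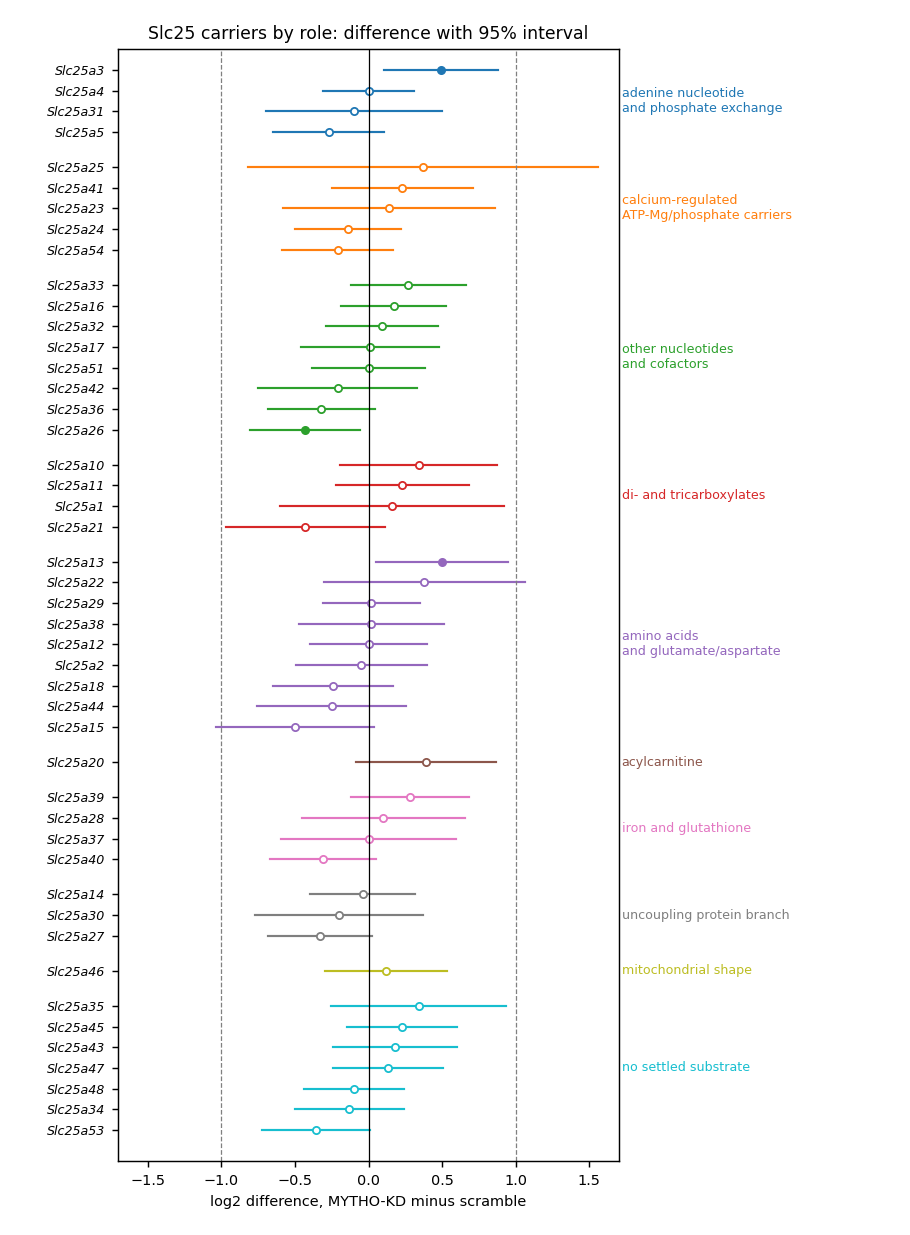
Log2 difference of 46 of the 47 Slc25 carriers (MYTHO-KD minus scramble, horizontal axis), grouped by the solute carried. Circles are differences of the authors' averages of 4 muscles per group, filled where the unadjusted p was under 0.05, bars are 95% intervals from limma's moderated variance, and dashed lines mark a 2-fold change. All 46 circles lie between -0.50 and 0.50, and 3 are filled.

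**Figure D2:**
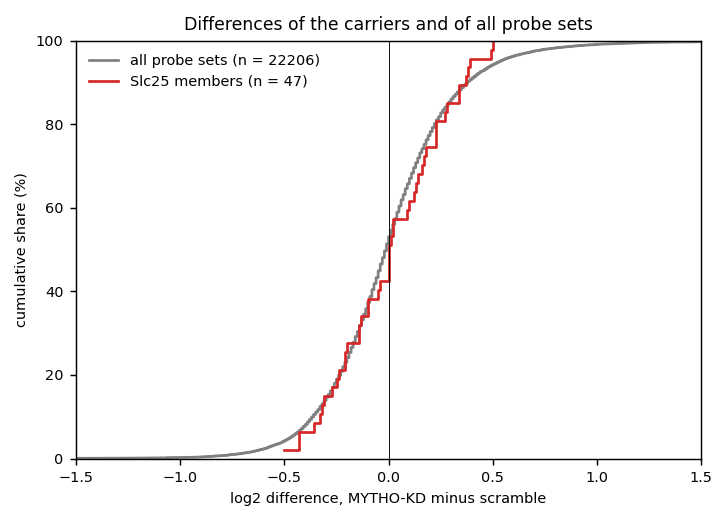
Cumulative share of genes (vertical axis, percent) at or below a given log2 difference (horizontal axis), for the 47 carriers and for all 22206 probe sets. The curve of the carriers stays beside that of all probe sets, with medians of 0.00 and -0.01, and has no tail beyond 0.50 in either direction.

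Windows around the transcription starts are given by RefSeq on the build GRCm38.p6 for 36 of the 47 members, 46 windows in all, each from 250 bases before to 50 bases after a start. The letters GGGCGG, the core of the GC box, stood on either strand in 82.6% of these windows and in 46.2% of 21263 windows of protein-coding genes, and 30 of the 36 members had them in at least 1 window. The median count of the letters CG in a window was 15 for the members and 13 for all windows. Its part in the share with GGGCGG was not tested. CCAAT stood in 47.8% of the members' windows against 38.2%, and TATAAA in 4.35% against 12.6%. AAGGTCA, bound by oestrogen-related receptors, stood in 1 window (2.17% against 4.08%). An exact palindrome bound by nuclear respiratory factor 1 stood in none (against 1.33%). Variants of that palindrome were not searched, so a lack of sites for this factor cannot be concluded. Windows of 1 gene can overlap, and a match of letters is not evidence of a bound site. *Slc25a26*, which had an unadjusted p under 0.05 in the results below, was not among the members with a window. The windows of the phosphate carrier *Slc25a3*, of the ADP/ATP carrier of muscle *Slc25a4* and of the aspartate/glutamate carrier *Slc25a13* are printed as examples. They lie on the minus strand at chr10:91123918-91124217, chr8:46211013-46211312 and chr6:6217124-6217423, and capitals mark GGGCGG, which the window of *Slc25a13* does not hold.
Slc25a3: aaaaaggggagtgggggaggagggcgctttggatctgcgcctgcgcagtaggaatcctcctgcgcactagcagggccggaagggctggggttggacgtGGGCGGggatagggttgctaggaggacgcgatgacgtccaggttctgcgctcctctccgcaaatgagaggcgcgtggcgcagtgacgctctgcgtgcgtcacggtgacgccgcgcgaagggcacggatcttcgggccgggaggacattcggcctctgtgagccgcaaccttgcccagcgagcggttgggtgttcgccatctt
Slc25a4: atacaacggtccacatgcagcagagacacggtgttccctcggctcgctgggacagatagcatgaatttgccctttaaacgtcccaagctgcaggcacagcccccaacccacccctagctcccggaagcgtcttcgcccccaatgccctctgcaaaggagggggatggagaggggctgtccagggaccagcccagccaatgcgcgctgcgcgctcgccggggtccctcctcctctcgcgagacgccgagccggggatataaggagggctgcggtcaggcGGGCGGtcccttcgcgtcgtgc
Slc25a13: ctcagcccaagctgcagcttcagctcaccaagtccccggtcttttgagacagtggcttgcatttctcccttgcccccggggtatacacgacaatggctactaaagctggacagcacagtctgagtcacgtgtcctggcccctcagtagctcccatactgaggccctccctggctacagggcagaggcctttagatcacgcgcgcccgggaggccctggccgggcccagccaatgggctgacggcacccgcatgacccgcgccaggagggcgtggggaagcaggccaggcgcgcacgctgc

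The group averages of the carriers that serve ATP synthase did not all point the same way, with 1 higher, 2 lower and 1 equal. *Slc25a3* (chromosome 10, 91115471 to 91124059), which brings phosphate into the matrix, had averages of 17.72 in MYTHO-KD and 17.23 in scramble, with authors' SDs of 0.29 and 0.09. Its log2 difference of 0.49 (standard error 0.178, 95% interval 0.10 to 0.88) had the lowest p of the family (adjusted p = 0.301, limma). *Slc25a4*, the main ADP/ATP carrier of heart and skeletal muscle, stood at 19.35 in both groups, with SDs of 0.01 and 0.03. This is close to the top of the scale, where the highest average of any probe set was 19.93, and a rise can be hidden there. *Slc25a5*, the ADP/ATP carrier found in most tissues, had averages of 12.11 in MYTHO-KD and 12.38 in scramble with an SD of 0.20 in both (difference -0.27, 95% interval -0.65 to 0.11). *Slc25a31*, the ADP/ATP carrier of germ cells, was dim, at 4.75 and 4.85.

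The carriers that exchange ATP-Mg for phosphate set the size of the matrix nucleotide pool, and most of them bind calcium. None of the 5 had an unadjusted p under 0.05, with 3 higher and 2 lower and a median difference of 0.14. *Slc25a25* averaged 10.15 in MYTHO-KD and 9.78 in scramble. Its SDs of 0.68 and 1.31 were wide. The scramble SD was the largest of any member, so its difference of 0.37 had a standard error of 0.544 and an interval from -0.82 to 1.56. Differences of *Slc25a41* (0.23), *Slc25a23* (0.14), *Slc25a24* (-0.14) and *Slc25a54* (-0.21) were smaller, all with intervals that included 0.

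Of 9 carriers of other nucleotides and cofactors, 1 passed the unadjusted threshold. *Slc25a26* (chromosome 6, 94500314 to 94604673), which imports S-adenosylmethionine, the methyl donor of the matrix, was at 9.33 in MYTHO-KD against 9.76 in scramble, where the SDs were 0.13 and 0.24. Its difference was -0.43 (standard error 0.171, 95% interval -0.80 to -0.06, adjusted p = 0.344, limma). The carriers of pyrimidine nucleotides pointed in opposite directions in the averages, *Slc25a33* by 0.27 and *Slc25a36* by -0.32 (adjusted p = 0.608 and adjusted p = 0.476, limma). *Slc25a51*, which imports NAD+, had an average of 12.29 in both groups (95% interval -0.38 to 0.38). *Slc25a42*, a carrier of coenzyme A, differed by -0.21, *Slc25a16* by 0.17, the folate carrier *Slc25a32* by 0.09 and the peroxisomal *Slc25a17* by 0.01.

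Among the amino acid carriers the pair of aspartate/glutamate exchangers, which run the malate-aspartate shuttle and are stimulated by calcium, gave unlike values. *Slc25a12*, the form found mainly in muscle, heart and brain, averaged 17.29 in both groups, where the SDs were 0.26 and 0.20 (95% interval of the difference -0.40 to 0.40). *Slc25a13* (chromosome 6, 6041218 to 6217173), known as citrin and found mainly in liver, was at 6.13 in MYTHO-KD against 5.63 in scramble, where the SDs were 0.33 and 0.26. Its difference of 0.50 was the largest positive difference of the family (standard error 0.206, 95% interval 0.05 to 0.95, adjusted p = 0.360, limma). It no longer passed without moderation or with unequal variances, and its scramble average lay under 5.715, the 30th percentile of all probe sets. Whether the members of this pair differ in their response was not tested.

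The other amino acid carriers did not pass. The mitochondrial ornithine carrier *Slc25a15* had the largest negative difference, at 7.13 in MYTHO-KD against 7.63 in scramble, where the SDs were 0.52 and 0.23 (difference -0.50, 95% interval -1.04 to 0.04, adjusted p = 0.45, limma). The glutamate carrier *Slc25a22* was at 7.52 in MYTHO-KD against 7.14 in scramble, where the SDs were 0.69 and 0.38 (difference 0.38, interval -0.30 to 1.06). *Slc25a44*, which carries branched-chain amino acids, differed by -0.25, and *Slc25a18*, the second glutamate carrier, by -0.24. The glycine carrier *Slc25a38* and the carrier of basic amino acids *Slc25a29* both differed by 0.02, and *Slc25a2*, the second ornithine carrier, by -0.05.

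Neither the acylcarnitine carrier nor any of the 4 carriers of di- and tricarboxylates had an unadjusted p under 0.05. *Slc25a20*, which takes acylcarnitines into the matrix for fatty acid oxidation, had averages of 12.60 in MYTHO-KD against 12.21 in scramble, where the SDs were 0.27 and 0.38 (difference 0.39, 95% interval -0.09 to 0.87, adjusted p = 0.517, limma). *Slc25a11*, the oxoglutarate/malate carrier of the malate-aspartate shuttle, was at 16.53 and 16.30, and its SD was 0.42 in MYTHO-KD against 0.08 in scramble (difference 0.23, interval -0.22 to 0.68). The dicarboxylate carrier *Slc25a10* differed by 0.34 and the citrate carrier *Slc25a1* by 0.16. *Slc25a21*, which carries oxoadipate, was at 5.02 in MYTHO-KD and 5.45 in scramble (difference -0.43, interval -0.97 to 0.11), near the low end of the scale.

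The mitoferrins, which bring iron into the matrix, hardly differed in the averages. *Slc25a37* stood at 7.28 in both groups with SDs of 0.47 and 0.46, so that its interval ran from -0.60 to 0.60, and *Slc25a28* differed by 0.10. The carriers tied to mitochondrial glutathione pointed apart, *Slc25a39* by 0.28 (11.94 in MYTHO-KD and 11.66 in scramble) and *Slc25a40* by -0.31 (8.53 and 8.84), with adjusted p = 0.602 and adjusted p = 0.489 (limma). The 3 relatives of the uncoupling proteins that carry Slc25a symbols were all lower in the averages, with differences of -0.33 for *Slc25a27* (8.59 in MYTHO-KD and 8.92 in scramble, adjusted p = 0.446, limma), -0.20 for *Slc25a30* and -0.04 for *Slc25a14*. *Slc25a46*, an outer membrane protein that affects the shape of mitochondria, differed by 0.12. Of the 7 members without a settled substrate none had an unadjusted p under 0.05, and the difference nearest to it was that of *Slc25a53*, at 6.53 in MYTHO-KD and 6.89 in scramble (difference -0.36, 95% interval -0.73 to 0.01, adjusted p = 0.427, limma). Differences of the other 6 lay between -0.13 for *Slc25a34* and 0.34 for *Slc25a35*.

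**Figure D3:**
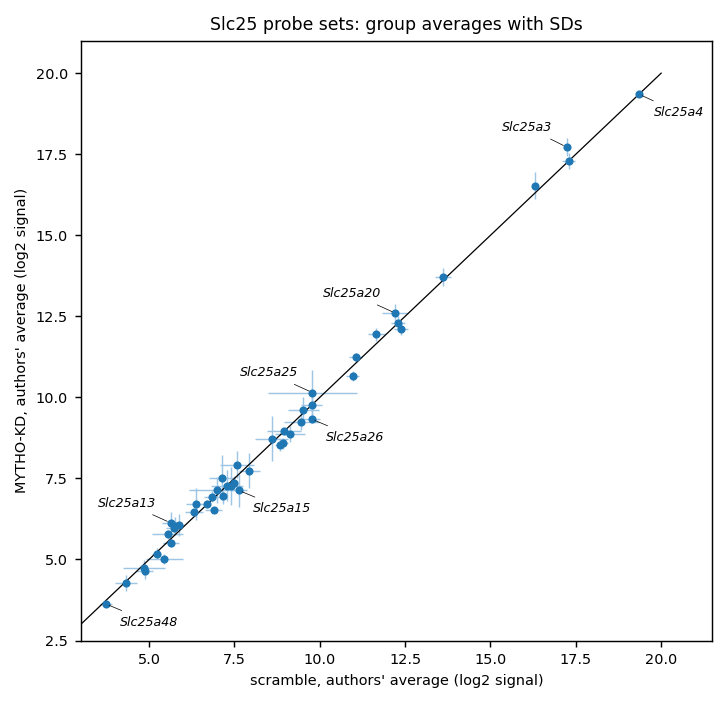
Authors' averages of the 47 carriers in scramble (horizontal axis) and MYTHO-KD (vertical axis), both as log2 signal, with authors' SDs as bars and the line of equal signal. The points follow the line from *Slc25a48* at 3.73 in scramble to *Slc25a4* at 19.35, and *Slc25a25* has the widest bar.

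Spread among muscles was compared by the SDs, without a test. The median SD of the members was 0.25 in MYTHO-KD and 0.24 in scramble, against 0.27 in either group for all probe sets, and the SD was larger in MYTHO-KD for 22 members and in scramble for 24. Larger SDs in MYTHO-KD thus held for 46.8% of members, against 48.1% of all probe sets. Role groups went both ways. The SD was larger in scramble for 6 of the 7 members without a settled substrate, and in MYTHO-KD for all 3 relatives of the uncoupling proteins. The largest SD of a member in MYTHO-KD was 0.69, far under those of the slow fibre markers given above. In scramble the largest was 1.31, for *Slc25a25*, beside 1.43 for *Tnni1* and 1.30 for *Myh7*. *Slc25a48* was the only member marked as not expressed in both groups (3.63 and 3.73). With it, 8 members had a mean under the 30th percentile of all probe sets, where a fall can be hidden. Levels are not compared between genes, because probes of different genes differ in brightness.

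Members that lie next to each other in the genome (mm10, coordinates of the table) were compared side by side. There were 4 pairs less than 100 kb apart. *Slc25a54* and *Slc25a24*, 6.46 kb apart on chromosome 3, differed by -0.21 and -0.14. *Slc25a41* and *Slc25a23*, 2.06 kb apart on chromosome 17, differed by 0.23 and 0.14, and *Slc25a29* and *Slc25a47*, 15.2 kb apart on chromosome 12, by 0.02 and 0.13. *Slc25a43* and *Slc25a5*, 18.3 kb apart on chromosome X, pointed apart, by 0.18 and -0.27. All 8 intervals included 0, so no direction can be given for any of these pairs.

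Some proteins of the same fold carry other symbols and were not members. *Ucp2*, whose RefSeq synonym is Slc25a8 and which encodes an uncoupling protein expressed in many cells, macrophages among them, averaged 11.55 in MYTHO-KD against 9.95 in scramble, where the SDs were 0.60 and 0.49. It rose 3.03-fold (log2 difference 1.60, 95% interval 0.92 to 2.28, adjusted p = 0.0648, limma), past 2-fold and the unadjusted threshold but not past the adjustment. The 10 macrophage markers were higher by 0.06 (*Fcgr1*) to 2.53 (*Cd68*) in the same muscles, with a median of 0.695. Their part in the value of *Ucp2* was not tested. *Ucp3*, the uncoupling protein of skeletal muscle, was at 14.06 in MYTHO-KD against 13.71 in scramble, where the SDs were 0.59 and 0.62 (difference 0.35, interval -0.38 to 1.08). *Ucp1*, the uncoupling protein of brown fat, was dim and not marked as expressed in MYTHO-KD (4.08 and 4.37). *Mtch1* and *Mtch2*, family members of the outer membrane, differed by -0.01 and -0.07.

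Genes that work beside the carriers were followed as a list of 50, of which 47 were measured, 2 of them on probe sets listed for several genes. The list holds the uncoupling proteins and *Mtch* genes above, the outer membrane channels, the import machinery of carrier precursors, the pyruvate carrier, the calcium uniporter, sideroflexins, ABC transporters and cardiolipin enzymes. Only *Ucp2* was called at 2-fold, where 1.12% of all probe sets were. At an unadjusted p under 0.05, 6 genes were higher and 2 lower (17% in all against 12% of all probe sets). None had an adjusted p under 0.05. Without moderation 4 were higher and 3 lower at the unadjusted p, where 10.5% of all probe sets passed. The median difference of the list was 0.07.

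In the import machinery the higher genes were *Tomm7*, *Tomm70a* and *Timm10*. *Tomm7*, a small subunit of the outer membrane translocase, was at 9.58 in MYTHO-KD and 8.92 in scramble (difference 0.66, 95% interval 0.23 to 1.09, adjusted p = 0.199, limma). *Tomm70a*, the receptor that receives carrier precursors, was at 10.98 and 10.58 (difference 0.40, adjusted p = 0.372, limma). *Timm10*, a chaperone that escorts carriers through the intermembrane space, was at 8.31 and 7.87 (difference 0.44, adjusted p = 0.407, limma), while *Timm9*, with which it forms a complex, differed by -0.01 and *Timm22*, the insertase of the inner membrane, by 0.03. *Tamm41*, an enzyme on the way to cardiolipin, the lipid bound by carriers, differed by 0.54, and the ABC transporter *Abcb6* by 0.46. *Timm10*, *Tamm41*, *Abcb6* and *Micu3*, described next, passed neither without moderation nor with unequal variances.

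The lower genes were *Vdac2* and *Micu3*. *Vdac2*, a channel through which metabolites cross the outer membrane, had averages of 16.72 in MYTHO-KD against 17.17 in scramble, where the SDs were 0.09 and 0.13 (difference -0.45, 95% interval -0.78 to -0.12, adjusted p = 0.262, limma). Its relatives *Vdac1* and *Vdac3* differed by 0.07 and -0.23. *Micu3*, a regulator of the calcium uniporter, was at 9.05 and 9.57 (difference -0.52, adjusted p = 0.353, limma), and the pore *Mcu* differed by 0.11. Neither subunit of the pyruvate carrier passed, with differences of 0.21 for *Mpc1* and 0.05 for *Mpc2*. Beside these, 10 enzymes and respiratory subunits taken as markers of mitochondrial amount had a median difference of 0.065. Of these, 2 were higher at an unadjusted p under 0.05 and none lower, where 6.48% of all probe sets were higher and 5.52% lower.

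**Figure D4:**
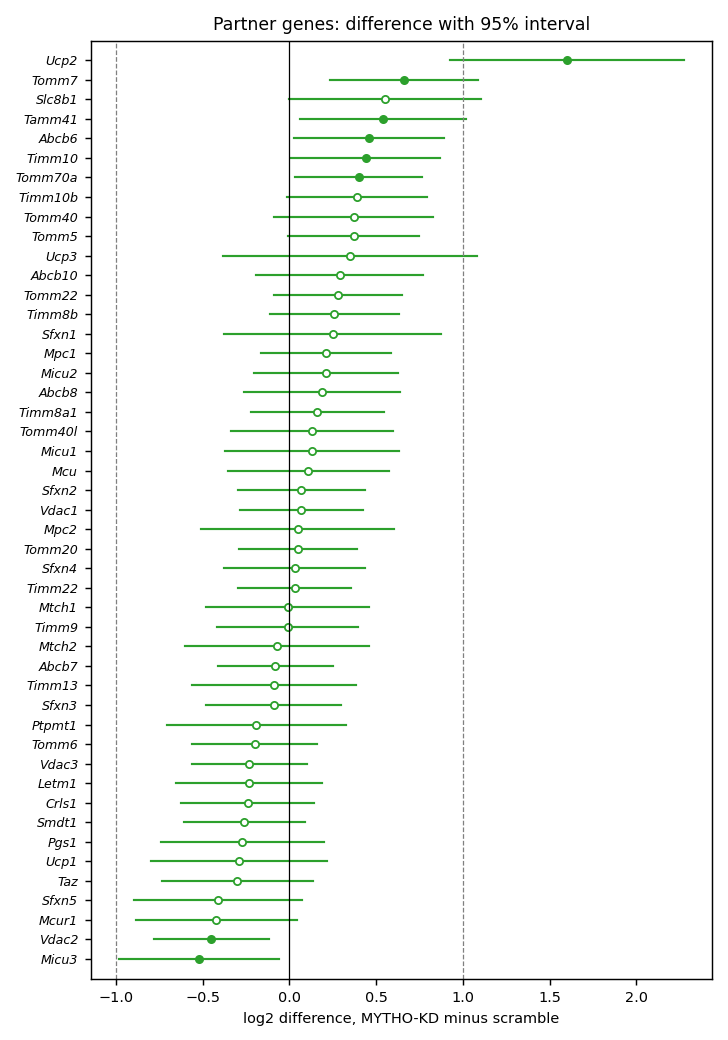
Log2 difference (MYTHO-KD minus scramble, horizontal axis) of the 47 measured partner genes, sorted by size. Circles are differences of the authors' averages, filled where the unadjusted p was under 0.05, bars are 95% intervals and dashed lines mark a 2-fold change. *Ucp2* at 1.60 is the only circle beyond the lines.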

How the data were processed

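RNA of 4 MYTHO-KD and 4 scramble GAS muscles was measured on Clariom S Mouse arrays. The authors normalized the signals in the Transcriptome Analysis Console (SST-RMA, default settings) (the submitters' processing notes also name Expression Console, RMA and the build mm10), and deposited, per probe set and group, a log2 average, an SD and an expression flag, written with a decimal comma. The kind of average is not given in the sources used here. Columns with the authors' own test results (fold change, p and false discovery rate) were not used, and 0 single-array columns were left unused.

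From the deposited log2 averages and SDs, limma's moderated test was computed for all 22206 probe sets with limma 3.58.1 in R 4.3.3. Group variances were pooled, with 6 residual degrees of freedom, and shrunk by squeezeVar towards a prior SD of 0.284 that weighed 5.85 degrees of freedom. The test was two-sided, with Benjamini-Hochberg adjustment across all probe sets. If the averages are robust rather than plain means, p-values may be too low. The test was checked on simulated data of independent arrays and plain means, so that check covers neither paired muscles nor robust averages.

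Following the study's methods, calls needed 2-fold and an unadjusted p under 0.05. Values in full are given for members under that p, the 5 largest differences each way, and carriers with a known role in muscle. The value of 1 member is not reported here, though counts and medians include it. The members and lists were chosen with earlier results of these data known. Arrays have no read depth, and 4 muscles per group limit the precision. Nothing in the labels says which muscles share a mouse, and the test treated all 8 as independent, although scramble went into the other leg. The p-values and intervals rest on the spread between muscles within a group, shrunk as described above. What pairing would change in them could not be tested. Alternatives were other variance models, filters on dim or unexpressed probe sets, 1 probe set per symbol, centring, a 1.5-fold limit and a wider family.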

Additional observations from a re-analysis of the deposited data

How the results depend on the processing

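No member could be called at 2-fold or 1.5-fold in any setting run on the 47 genes. The reason is that no difference reached 0.585, the log2 of 1.5, in either direction. No member had an adjusted p under 0.05 in any of these settings. A family widened by the *Ucp* and *Mtch* genes, a setting chosen after the data were seen, had 1 call, *Ucp2*. The members under an unadjusted p of 0.05 depended on how the variance was modelled. In place of 2 higher and 1 lower there were 1 higher and 5 lower without moderation (6 of 47, 12.8%, against 10.5% of all probe sets), and 1 higher and 4 lower with unequal variances (10.6% against 9.01%). *Slc25a3* and *Slc25a26* passed in both of these, and *Slc25a13* in neither, while *Slc25a27*, *Slc25a36* and *Slc25a40* passed in both and *Slc25a53* without moderation. The adjusted p of D230025D16Rik, at the same log2 difference of -2.31, was 0.173 without moderation and 0.363 with unequal variances. Partner genes under an unadjusted p of 0.05 were 4 higher and 3 lower without moderation, where 10.5% of all probe sets passed. They were 4 and 2 with unequal variances (9.01% of all probe sets) and 8 and 2 after centring (12%). Of the partner genes, 2 of 47 were called at 1.5-fold (*Ucp2* and *Tomm7*), where 5.8% of all probe sets were. With a trend and robust fitting 1 had an adjusted p under 0.05, and the share of all probe sets at that limit was not counted in that setting. The settings left the differences as they were, apart from a shift of 0.01 by centring, so they do not bear on directions. Without its dim member the median of the ATP-Mg/phosphate group was 0 in place of 0.14. No paired analysis was possible because the columns hold group averages, and for the same reason no muscle could be left out in turn. Signals at the top of the scale, as for *Slc25a4*, and near its floor limit what can be seen.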
